A study of Mus musculus with 6 samples.

Results

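The CDK inhibitor genes are the 7 genes of the CIP/KIP and INK4 families, taken by symbol from a table of 29955 genes measured by RNA-seq in mouse embryonic fibroblasts (MEFs, primary cells grown from mouse embryos). All 7 were found in the table. The CIP/KIP family has 3 members, Cdkn1a (p21), Cdkn1b (p27) and Cdkn1c (p57). The INK4 family has 4, Cdkn2a (p16Ink4a and p19Arf), Cdkn2b (p15), Cdkn2c (p18) and Cdkn2d (p19Ink4d). The comparison was between 3 Rnf40+/+ and 3 Rnf40-/- libraries of MEFs at passage 3. RNF40 is a subunit of the ubiquitin ligase that places monoubiquitin on histone H2B. The study derived its MEFs from embryos with loxP sites in both Rnf40 alleles and a ubiquitously expressed, tamoxifen-inducible Cre (Rosa26-CreERT2), and the Rnf40-/- cells had received 250 nM 4-hydroxytamoxifen (4-OHT) for 5 days followed by 3 days without it. The sources used here do not give the 4-OHT treatment of the Rnf40+/+ cells used for RNA-seq, so the deletion and the treatment cannot be told apart. The labels do not say that the libraries of a genotype came from separate embryos or cultures, and the p values therefore measure the spread between these libraries, which may be technical.

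Cyclin-dependent kinases (CDKs) drive the cell cycle when bound to cyclins, and the CDK inhibitors hold them back. INK4 proteins bind CDK4 and CDK6 and keep them from D-type cyclins, whereas CIP/KIP proteins bind complexes of a cyclin with its kinase, above all CDK2 complexes. In MEFs, p16Ink4a and p19Arf are known to accumulate with passage in culture, p19Arf stabilizes p53 by holding back MDM2, and p53 activates Cdkn1a.

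Values are normalized counts, the reads of a gene divided by 1 size factor per library as deposited, and fold changes are log2(normalized count + 1) in Rnf40-/- minus Rnf40+/+, tested with limma and adjusted by Benjamini-Hochberg over 16378 genes. The libraries held from 17053436 to 26344170 reads on genes in Rnf40+/+ and from 18115481 to 20495627 in Rnf40-/-. Rnf40 had normalized counts of 1278, 1195 and 1096 in Rnf40+/+ and of 439, 519 and 487 in Rnf40-/-, so the labels matched the targeted gene. Rnf40+/+ replicate 3, the library with the most reads, stood apart from the other Rnf40+/+ libraries by chi-square per gene (26.9 and 24.1, against 7.87 between the others). This measure grows with read depth. By genes over 2-fold from the other replicates, replicate 1 deviated about as much (395 above and 233 below, against 346 and 278 for replicate 3). Member values are given with and without Rnf40+/+ replicate 3 where it decides them. None of the 10 fibroblast markers was without reads, and their summed level was 669465 to 741504 in Rnf40+/+ and 400462 to 403413 in Rnf40-/-. Fn1 alone averaged 328300 and 210096 of these sums. By adjusted p under 0.05 in limma, 8 of the 10 were lower (80.0%) and 0 higher. Dcn (log2 fold change 0.20) and Lum (-0.57) were not called. In bulk RNA, fewer cells of a type and less RNA per cell cannot be told apart. The summed levels of macrophage markers (6541 to 11860 against 4289 to 4845), muscle markers (1709 to 4881 against 438 to 496) and neural markers (3253 to 4662 against 2247 to 2597) were also lower in Rnf40-/-. Most of the Rnf40+/+ sums came from Lyz2 (mean 5314), from Acta1 (2648), and from Nes (2110) with Tubb3 (1766). The sums therefore do not describe every marker of a list. Sox10, a neural marker, was higher in every Rnf40-/- library but was not called. Those of endothelial markers (146 to 282 against 234 to 333) and epithelial markers (33.7 to 107 against 39.7 to 64.2) overlapped, and red blood cell markers did not exceed 1.19 in any library. By adjusted p under 0.05 in limma, 3 of 5 endothelial markers tested were higher and 1 was lower (Emcn, log2 fold change -1.15). The higher ones were Kdr (1.56) and, from low counts, Cdh5 (3.26) and Pecam1 (2.58). Of 3 neural markers tested, 0 were higher and 1 was lower (Nes). Both muscle markers tested, Acta1 and Des, were lower, and were highest in Rnf40+/+ replicate 1 (4449 and 431). Over all genes tested, 23.3% were higher and 24.1% lower. The part of these cell types in the results was not tested.

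Of the 7 CDK inhibitor genes, 3 were lower in Rnf40-/- MEFs (Cdkn1a, Cdkn1b and Cdkn2a) and 0 were higher by adjusted p under 0.05 in limma. Over all genes tested, 24.1% were lower and 23.3% were higher by the same rule. Their log2 fold changes had a median of -0.66, against -0.0035 over all genes tested, and 6 of the 7 lay below 0 (Cdkn2c at 0.013 when scaled by library totals). In 4 genes every Rnf40-/- library was below every Rnf40+/+ library, which held for 28.7% of all genes tested. In 1 gene, Cdkn2b, every Rnf40-/- library was above, which held for 27.8%. The criteria of the study were a mean over 15, p under 0.05 and a log2 fold change beyond 1 in either direction. Applied here to the limma values, they were passed by none of the 7 genes. Of all genes tested, 5.7% passed them as lower and 4.25% as higher. The study used DESeq, and Cdkn1c lay beyond 1 with edgeR (-1.09) and with the Wald test of DESeq2 (-1.07). The criteria were not applied to those fits. The count of 0 higher members was also found with the quasi-likelihood test of edgeR and the Wald test of DESeq2, and no member was higher at an unadjusted p under 0.05 in limma. The plot of values by library shows both families side by side.

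**Figure D1:**
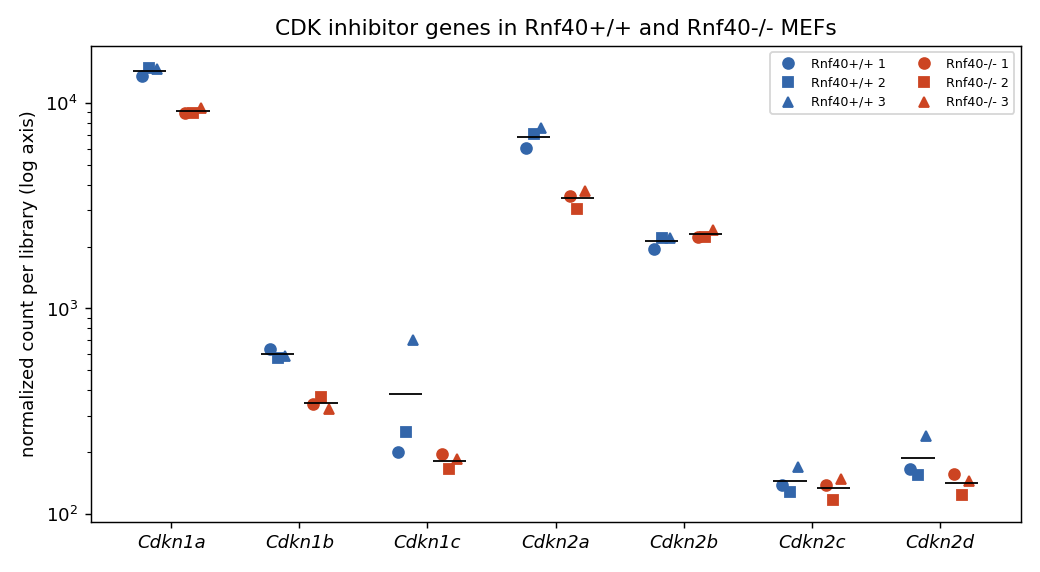
Normalized counts (log axis) of the 7 CDK inhibitor genes in the 3 Rnf40+/+ (blue) and 3 Rnf40-/- (red) libraries, with symbols for replicates and a bar at each mean. Cdkn1a, Cdkn1b and Cdkn2a fall into separate groups by genotype, Cdkn2b lies within a narrow range in all libraries, and Cdkn1c has 1 high value (703) in Rnf40+/+ replicate 3.

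Cdkn1a (ENSMUSG00000023067, chr17:29227924-29237667 of mm9, plus strand) encodes p21, the inhibitor best known as a target of p53. RefSeq places its starts at 2 sites on GRCm38.p6. The 250 bases before the upstream start (chr17:29090729-29090978, plus strand) are shown because they hold both matches to the 10-base unit of the p53 response element, in capitals, that were found in the Cdkn1a promoters.
Cdkn1a upstream promoter: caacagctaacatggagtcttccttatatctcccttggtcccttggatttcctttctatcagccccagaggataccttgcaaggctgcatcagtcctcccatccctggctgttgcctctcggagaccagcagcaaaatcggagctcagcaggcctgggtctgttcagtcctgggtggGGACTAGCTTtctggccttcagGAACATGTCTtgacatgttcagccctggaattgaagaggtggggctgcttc
This p53 unit was searched on both strands from 250 bases before to 50 bases after each start. It was present in 8.36% of the 32851 RefSeq promoters of the mouse and in 2 of the 9 member promoters, 1 of Cdkn1a and 1 of Cdkn2d. A match describes the letters and not binding.

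The normalized counts of Cdkn1a were 13556, 14880 and 14639 in Rnf40+/+ and 8930, 8937 and 9466 in Rnf40-/- MEFs. All Rnf40-/- values were below all Rnf40+/+ values, and the gap between the genotypes was wider than the range within either. They averaged 14358.5 ± 706 and 9111 ± 307 (SD, n = 3 each), which left 63.5% of the level of Rnf40+/+ cells. This was a log2 fold change of -0.66 (standard error 0.07 and 95% interval -0.80 to -0.51 in limma, adjusted p = 8.20e-06). A lower log2 fold change than this was found for 12.9% of the genes tested. Without Rnf40+/+ replicate 3 the value was -0.64.

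Cdkn1b (ENSMUSG00000003031, chr6:134870419-134875531 of mm9, plus strand) encodes p27, which restrains CDK2 in resting cells and is removed before S phase by the ubiquitin ligase containing SKP2. Its promoter (chr6:134920151-134920400 of GRCm38.p6, plus strand) is shown because Cdkn1b was lower together with Cdkn1a and holds CCAAT boxes, in capitals, where the printed stretch of Cdkn1a holds none.
Cdkn1b promoter: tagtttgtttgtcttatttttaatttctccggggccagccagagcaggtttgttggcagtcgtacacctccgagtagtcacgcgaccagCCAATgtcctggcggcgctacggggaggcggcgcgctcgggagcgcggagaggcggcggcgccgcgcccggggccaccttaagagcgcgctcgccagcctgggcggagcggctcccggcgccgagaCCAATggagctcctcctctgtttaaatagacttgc
CCAAT (both strands) was present in 37.4% of all RefSeq promoters.

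Cdkn1b had normalized counts of 637, 573 and 585 in Rnf40+/+ and of 345, 370 and 324 in Rnf40-/- MEFs. The genotypes did not overlap, and the lowest Rnf40+/+ library stood well above the highest Rnf40-/- library. They averaged 598 ± 33.6 and 346 ± 23.4 (SD, n = 3 each), or 57.9% of the level in Rnf40+/+. In limma the log2 fold change came to -0.79 (standard error 0.09, 95% interval -0.99 to -0.59, adjusted p = 2.82e-05). It was -0.80 without Rnf40+/+ replicate 3. The proportion of Cdkn1a to Cdkn1b, a ratio not among the planned tests, did not separate the genotypes. The difference in the log2 ratio was 0.13 (exact permutation test, two-sided, p = 0.5, where 0.1 is the smallest p possible with 3 libraries against 3), with Rnf40+/+ values of 4.41, 4.70 and 4.64 and Rnf40-/- values of 4.70, 4.59 and 4.87.

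Cdkn1c (ENSMUSG00000037664, chr7:150644255-150646955 of mm9, minus strand) encodes p57, the imprinted CIP/KIP member, expressed mainly from the maternal allele in a domain that also holds the noncoding RNA Kcnq1ot1. Its normalized counts were 199, 250 and 703 in Rnf40+/+ and 196, 166 and 184 in Rnf40-/-. Rnf40+/+ replicate 3 was far above all other libraries, while Rnf40+/+ replicate 1 was barely above the highest Rnf40-/- library. They averaged 384 ± 277 and 182 ± 15.04 (SD, n = 3 each), or 47.4% of the level in Rnf40+/+. With a standard error of 0.34 and a 95% interval from -1.59 to -0.10, the log2 fold change of -0.85 did not pass the threshold (adjusted p = 0.060 in limma). Without Rnf40+/+ replicate 3 it was -0.30 (adjusted p = 0.113 from limma). Without Rnf40+/+ replicate 1 it was -1.20 and past the threshold (adjusted p = 0.00467 from limma), as it was in the quasi-likelihood test of edgeR (-1.09, adjusted p = 0.0351) but not in the Wald test of DESeq2 (-1.07, adjusted p = 0.115).

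Some, not most, of the imprinted genes around Cdkn1c also had their highest value in Rnf40+/+ replicate 3 (4 of 17 with reads, Igf2, H19, Tssc4 and Dhcr7). H19, a noncoding RNA of the neighbouring domain, had normalized counts of 1563, 1277 and 4256 in Rnf40+/+ and of 309, 177 and 247 in Rnf40-/-. Igf2, a fetal growth factor expressed from the other parental allele, had 3664, 3856 and 6542 against 1610, 1252 and 1523. Unlike Cdkn1c, both were lower in Rnf40-/- than in each of the Rnf40+/+ libraries by a wide margin (log2 fold changes of -3.09, adjusted p = 1.95e-05, and -1.64, adjusted p = 1.50e-05, from limma). Kcnq1ot1, which is transcribed antisense to Kcnq1 and known to silence the paternal Cdkn1c allele, had 1189, 899 and 1088 against 1537, 1500 and 1119 (log2 fold change 0.38, adjusted p = 0.0264 from limma). Its genotypes were close, and the call was lost without Rnf40+/+ replicate 2 (0.27, adjusted p = 0.129), Rnf40-/- replicate 1 (0.30, adjusted p = 0.119) or Rnf40-/- replicate 2 (0.32, adjusted p = 0.116). Whether reads were counted by strand is not given in the sources used here. Phlda2, another maternally expressed gene beside Cdkn1c, had too few reads for the test, with 34.6, 2.04 and 3.19 against 6.12, 11.5 and 3.78. Of 18 imprinted genes around Cdkn1c in the table, 14 were tested (median log2 fold change 0.18). In Rnf40-/-, 7 of the 14 were higher and 5 lower, where 23.3% of all genes tested were higher and 24.1% lower. Without Rnf40+/+ replicate 2 the number higher was 4.

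Macrophage markers differed in how they followed this library. Of the 12 in the table, 7 had their highest value of all libraries in Rnf40+/+ replicate 3 (Csf1r, Cd68, Aif1, Fcgr1, C1qa, C1qb and Lyz2), whereas Cd53 was lowest there among the Rnf40+/+ libraries (361, 416 and 308). C1qa, a complement component made by macrophages, had 386, 395 and 1211 in Rnf40+/+ and 144, 140 and 190 in Rnf40-/-. Cd68, a lysosomal protein of macrophages, had 159, 189 and 427 against 215, 186 and 203. Of the 11 that were tested, 4 were lower in Rnf40-/- (36.4%, against 24.1% of all genes tested). The 3 that were higher (27.3%, against 23.3%) were Ptprc (1.37), Cd14 (0.66) and Cd53 (0.37), and no macrophage marker was without reads. The part of these cells in the Cdkn1c value was not tested. The macrophage and imprinted genes named here beside Cdkn1c, other than Kcnq1ot1 and Phlda2, were picked for the plot after their values had been seen.

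**Figure D2:**
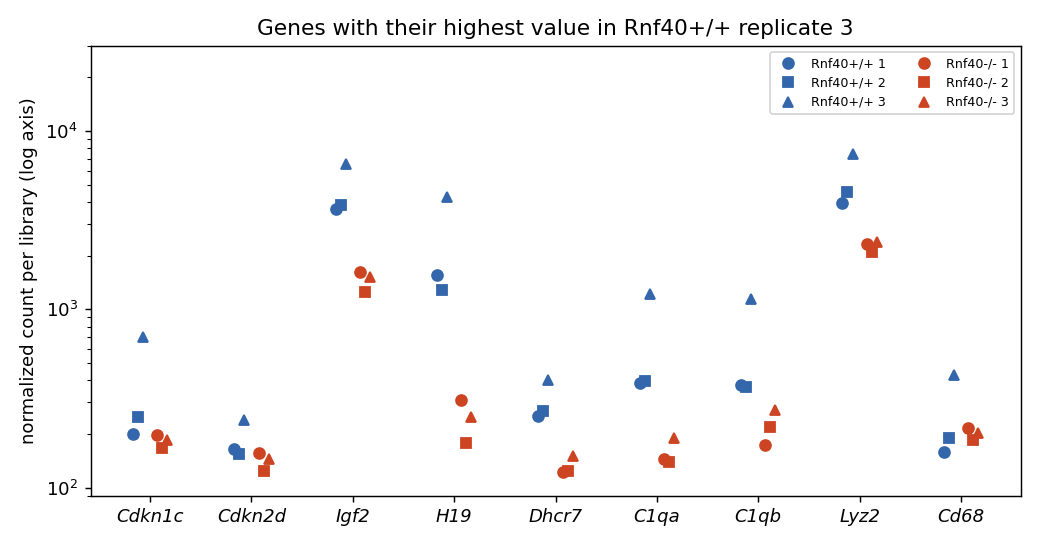
Normalized counts (log axis) by library for Cdkn1c and Cdkn2d, for the imprinted or neighbouring genes Igf2, H19 and Dhcr7, and for 4 macrophage markers, with Rnf40+/+ in blue and Rnf40-/- in red. Rnf40+/+ replicate 3 (blue triangles) is the highest library for each gene drawn, and the genes were chosen for that after their values were seen.

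Cdkn2a (ENSMUSG00000044303, chr4:88920377-88940557 of mm9, minus strand) had the lowest log2 fold change of the 7 genes. The locus has separate first exons for p16Ink4a and p19Arf, which are unrelated proteins read in different frames of the shared second exon. As 1 row of the table covers both, p16Ink4a and p19Arf cannot be told apart here. Its 2 RefSeq starts lie 12427 nucleotides apart. The 250 bases before each are shown because either could feed the row, first the promoter of p19Arf (chr4:89294620-89294869 of GRCm38.p6, minus strand) and then that of p16Ink4a (chr4:89282193-89282442, minus strand). They are followed by the promoter of Cdkn2b (chr4:89311033-89311282, minus strand), the next gene, which behaved differently. Capitals mark GC boxes (GGGCGG, both strands) in the promoters of Cdkn2a, and the cyclic AMP response element (TGACGTCA) in that of Cdkn2b.
Cdkn2a promoter, p19Arf start: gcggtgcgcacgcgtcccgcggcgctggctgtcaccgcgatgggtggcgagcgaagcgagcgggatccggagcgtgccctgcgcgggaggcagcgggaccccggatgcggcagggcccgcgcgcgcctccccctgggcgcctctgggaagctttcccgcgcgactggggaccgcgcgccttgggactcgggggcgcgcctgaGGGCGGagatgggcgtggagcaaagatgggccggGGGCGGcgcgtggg
Cdkn2a promoter, p16Ink4a start: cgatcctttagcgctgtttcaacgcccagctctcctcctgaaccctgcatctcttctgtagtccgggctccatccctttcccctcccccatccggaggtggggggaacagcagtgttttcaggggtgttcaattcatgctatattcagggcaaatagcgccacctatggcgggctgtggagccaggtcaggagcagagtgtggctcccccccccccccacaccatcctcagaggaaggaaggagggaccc
Cdkn2b promoter: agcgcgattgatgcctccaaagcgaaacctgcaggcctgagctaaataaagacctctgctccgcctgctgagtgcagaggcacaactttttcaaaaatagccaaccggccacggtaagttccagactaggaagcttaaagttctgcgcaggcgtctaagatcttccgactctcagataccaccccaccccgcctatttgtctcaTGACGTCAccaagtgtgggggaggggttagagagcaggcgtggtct
The GC box was present in 35.7% of all RefSeq promoters and in 7 of the 9 member promoters, at least 1 for each of the 6 members that have a promoter here. The matches of the p16Ink4a start and of Cdkn2b lay after the start and so outside the stretch printed. TGACGTCA was present in 1.79% of all RefSeq promoters and among the members in that of Cdkn2b only. The E2F site TTTCCCGC (1.07% of all promoters) was found before the p19Arf start only, CACGTG (7.15%) in Cdkn2c only, and TATAAA (13.6%), TTTGGCGC (0.514%) and GTAAACA (3.65%) in no member promoter, each on both strands.

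The normalized counts of Cdkn2a were 6039, 7039 and 7530 in Rnf40+/+ and 3547, 3056 and 3738 in Rnf40-/- MEFs. Every Rnf40-/- library was far below the lowest Rnf40+/+ library. They averaged 6869 ± 760 and 3447 ± 352 (SD, n = 3 each), which left 50.2% of the level of Rnf40+/+ cells. Its log2 fold change in limma of -0.99 had a standard error of 0.09 and a 95% interval from -1.20 to -0.79 (adjusted p = 4.91e-06), and 6.30% of the genes tested had a lower one. It lay just short of the fold change that the study required, and passed it when Rnf40+/+ replicate 1 (-1.08), Rnf40-/- replicate 1 (-1.02) or Rnf40-/- replicate 3 (-1.05) was left out. Without Rnf40+/+ replicate 3 it was -0.92.

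Cdkn2b (ENSMUSG00000073802, chr4:88952198-88956941 of mm9, minus strand) lies 11640 nucleotides from Cdkn2a and encodes p15, known as a target of TGF-beta signalling. It had normalized counts of 1951, 2209 and 2211 in Rnf40+/+ and of 2235, 2231 and 2411 in Rnf40-/-. The Rnf40-/- libraries were all above the Rnf40+/+ libraries, but by a small step between the nearest of them. They averaged 2124 ± 149 and 2292 ± 102 (SD, n = 3 each). In limma the log2 fold change came to 0.11 (standard error 0.07, adjusted p = 0.222), and its 95% interval from -0.04 to 0.27 lay apart from that of Cdkn2a. Among the alternatives run, Cdkn2b passed the threshold only with library totals in place of the size factors (0.24, adjusted p = 0.00939 from limma), a scaling that moved the median of all genes tested to 0.12 and the share of higher genes among all genes called from 49.1% to 63.8%.

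The divergence of the neighbours was measured within each library as the log2 ratio of Cdkn2a to Cdkn2b, a ratio chosen after the values were seen. It was 1.63, 1.67 and 1.77 in Rnf40+/+ and 0.67, 0.45 and 0.63 in Rnf40-/-. The genotypes did not overlap, and the difference of -1.11 gave the smallest p that 3 libraries against 3 allow (exact permutation test, two-sided, p = 0.1). Of the other genes of this stretch, Mtap, which encodes an enzyme of methionine salvage, had 2668, 2988 and 2507 in Rnf40+/+ and 3846, 4022 and 4160 in Rnf40-/-, higher in every Rnf40-/- library (log2 fold change 0.56, adjusted p = 6.94e-05 from limma). Dmrta1 was also higher (1.90, adjusted p = 0.0166 from limma) but had at most 6.12 normalized counts in Rnf40+/+ and at most 21.9 in Rnf40-/-, and it lost the call without Rnf40-/- replicate 2 (1.60, adjusted p = 0.0956). Elavl2, a neuronal RNA-binding protein gene, had 225, 160 and 253 against 205, 201 and 206 (adjusted p = 0.882 from limma). Of the 3 tested genes beside Cdkn2a and Cdkn2b, 2 were higher and 0 lower, while Cdkn2a was lower. Over all genes tested, 23.3% were higher and 24.1% lower, and 3 genes are too few to set the stretch apart.

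Cdkn2c (ENSMUSG00000028551, chr4:109333481-109339794 of mm9, minus strand) encodes p18, an INK4 inhibitor of CDK4 and CDK6. Its normalized counts were 139, 128 and 169 in Rnf40+/+ and 138, 117 and 148 in Rnf40-/-. The genotypes overlapped, with a log2 fold change of -0.11 (standard error 0.16, 95% interval -0.46 to 0.23, adjusted p = 0.590 from limma). The value was 0.0021 without Rnf40+/+ replicate 3. Cdkn2d (ENSMUSG00000066860, chr9:21092907-21095653 of mm9, minus strand) encodes p19Ink4d, which is distinct from p19Arf. It had 165, 155 and 240 in Rnf40+/+ and 157, 123 and 145 in Rnf40-/-. Rnf40+/+ replicate 3 was again the highest library and the other two Rnf40+/+ libraries lay among or close to the Rnf40-/- values. For Cdkn2d the log2 fold change came to -0.37 (standard error 0.18, 95% interval -0.76 to 0.015, adjusted p = 0.105 from limma), and -0.18 without that library. The interval of Cdkn2d included the value of Cdkn1a (-0.66), so that a change of that size could not be told from none, whereas the interval of Cdkn2c did not include it. The Cdkn2c and Cdkn2d values rested on 858 and 1017 reads over all libraries, against 71621 for Cdkn1a.

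**Figure D3:**
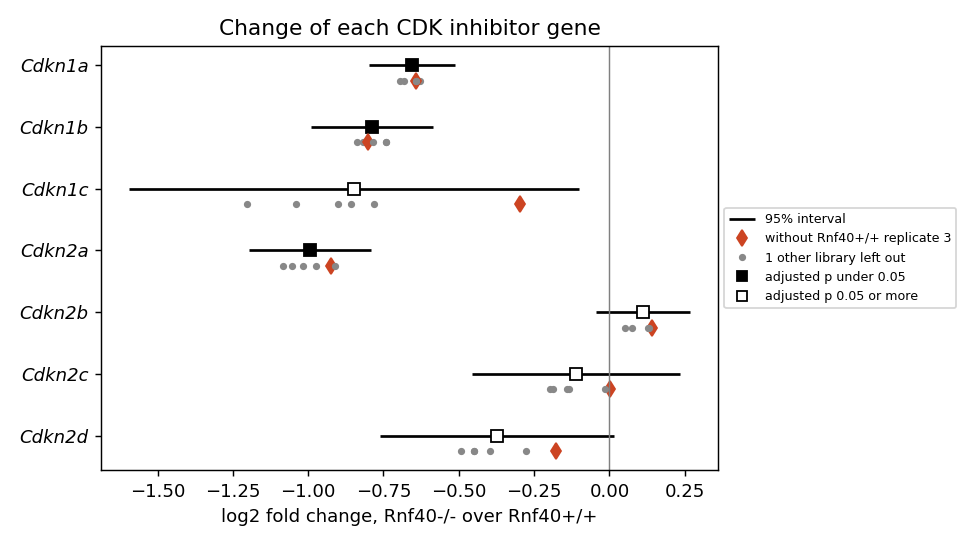
Log2 fold change of each CDK inhibitor gene (squares, filled where the adjusted p was under 0.05) with its 95% interval from limma, and below it the value with 1 library left out (grey points, red diamonds for Rnf40+/+ replicate 3). Cdkn1a, Cdkn1b and Cdkn2a keep their values within narrow limits, whereas Cdkn1c moves from -0.85 to -0.30 and Cdkn2d from -0.37 to -0.18 without Rnf40+/+ replicate 3.

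To compare levels between genes, normalized counts were divided by the exon length of each gene in kb. On this scale Cdkn1a was the most abundant inhibitor in Rnf40+/+ MEFs (6459 ± 317), followed by Cdkn2a (5871 ± 649), whose spread reached that of Cdkn1a. Cdkn2b came next (1525 ± 107). Far below lay Cdkn1c (199 ± 144), Cdkn2d (147 ± 36.8) and Cdkn1b (131 ± 7.39), which did not differ beyond their spread, and Cdkn2c was lowest (54.1 ± 7.92; SD, n = 3 for all). In Rnf40-/- MEFs the per-kb levels were 4098 ± 138 for Cdkn1a, 2946 ± 301 for Cdkn2a, 1646 ± 73.5 for Cdkn2b, 112 ± 13.5 for Cdkn2d, 94.2 ± 7.79 for Cdkn1c, 76.1 ± 5.13 for Cdkn1b and 49.99 ± 5.94 for Cdkn2c. Of these, Cdkn2d and Cdkn1c did not differ beyond their spread, while Cdkn1a and Cdkn2a now did.

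Summed over the 7 genes, the per-kb level was 13085, 14721 and 15353 in Rnf40+/+ and 9006, 8541 and 9519 in Rnf40-/-. Each Rnf40-/- sum was below each Rnf40+/+ sum, a log2 difference of -0.67 (exact permutation test, two-sided, p = 0.1, the smallest possible). This test of the sum was not among those planned. Cdkn1a took 45.0% ± 1.90 of the sum in Rnf40+/+ and 45.5% ± 1.39 in Rnf40-/-. The share of Cdkn2a was 40.7% ± 1.24 and 32.6% ± 1.75, and that of Cdkn2b 10.6% ± 0.233 and 18.2% ± 0.472 (SD, n = 3). The shares of Cdkn2a and Cdkn2b thus did not overlap between the genotypes, while that of Cdkn1a did. The balance of the families was close in both genotypes. The log2 ratio of the INK4 sum to the CIP/KIP sum was 0.089, 0.16 and 0.23 in Rnf40+/+ and 0.20, 0.056 and 0.20 in Rnf40-/-, with a difference of -0.0060 (exact permutation test, two-sided, p = 1).

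**Figure D4:**
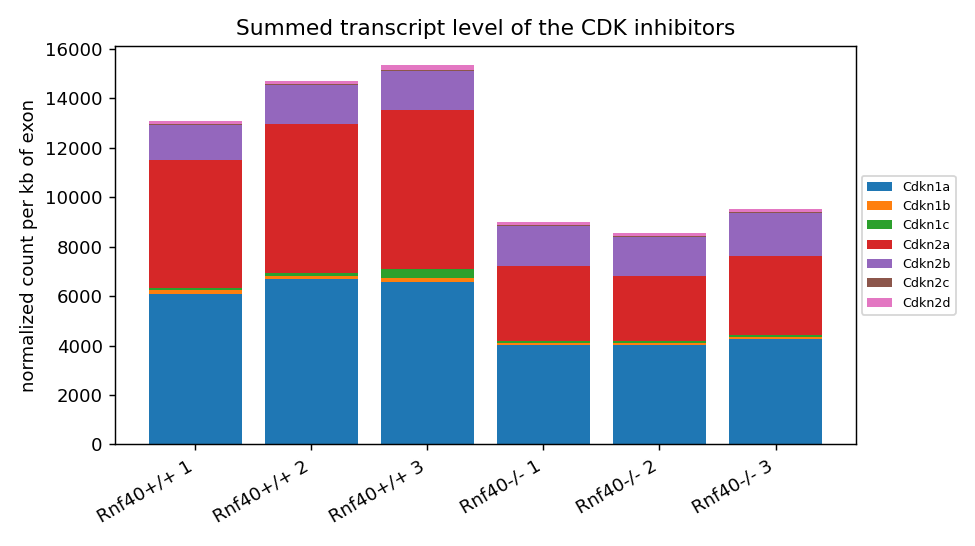
Stacked normalized counts per kb of exon of the 7 CDK inhibitor genes in each library. The 3 Rnf40-/- libraries reach 8541 to 9519 and the 3 Rnf40+/+ libraries 13085 to 15353, and Cdkn2b (purple) keeps about the same height while Cdkn1a (blue) and Cdkn2a (red) are shorter in Rnf40-/-.

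Over the 6 libraries, Cdkn1a, Cdkn1b and Cdkn2a went together (Pearson's r on log2 values of 0.95 for Cdkn1a and Cdkn1b, 0.99 for Cdkn1a and Cdkn2a and 0.91 for Cdkn1b and Cdkn2a), and Cdkn1c went with Cdkn2d (0.94). These values describe 6 libraries that share 1 split by genotype. Among 15498 genes with a mean above 15, those most like Cdkn1a were Tgfb3 and Bcat1 (r = 0.999 for both), but 1597 genes had an r above 0.95. For Cdkn1b they were Tmem49 and Nckap5l, with 1238 genes above 0.95, and for Cdkn2a they were Ctbp1 and Slc4a2, with 1294. Fewer genes shared the other patterns, with 98 for Cdkn1c (Pi4k2a first), 98 for Cdkn2d (Trem2 and sr104), 39 for Cdkn2b (Ube2cbp and AK151815) and 31 for Cdkn2c (Etfb and Ephb4).

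The kinases and cyclins that the inhibitors bind were lower as well. Of 10 genes tested, 8 were lower (80.0%) and 1 was higher (10.0%) in Rnf40-/-, with a median log2 fold change of -0.70. Over all genes tested, 24.1% were lower and 23.3% higher. Cdk4, the kinase of D-type cyclins that INK4 proteins bind, had a log2 fold change of -1.07 (adjusted p = 3.93e-07 from limma), with 6690, 6647 and 7410 normalized counts in Rnf40+/+ and 3289, 3045 and 3526 in Rnf40-/-. Cdk6 alone was higher (0.55, adjusted p = 0.0241 from limma), from low counts of 87.2, 71.4 and 87.8 against 143, 118 and 103. The Cdk6 call was lost without Rnf40+/+ replicate 2 (0.45), Rnf40-/- replicate 1 (0.43) or Rnf40-/- replicate 2 (0.56). The D-type cyclins had log2 fold changes of -0.71 (Ccnd1), -0.59 (Ccnd2) and -0.16 (Ccnd3), the last of which lost its call without any 1 of the 6 libraries (-0.18 to -0.14). Among the partners of CIP/KIP proteins, Cdk2 (-0.93), Ccne1 (-0.69), Ccna2 (-1.51) and Cdk1 (-2.05) were lower, and Ccne2 missed the threshold (-0.11, adjusted p = 0.413 in limma). All 24 proliferation genes were lower (median -2.21), among them Mki67 (-2.84), the gene of the Ki-67 antigen. Cdk1 and Ccna2 belong to both lists. Lower inhibitor levels and lower proliferation genes were thus measured in the same libraries.

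Of 14 genes for turnover of the inhibitor proteins, 4 were lower (28.6%) and 2 were higher (14.3%), with a median of 0.0049. Over all genes tested the shares were 24.1% lower and 23.3% higher, so the counts do not set the list apart, and its genes are given singly. Skp2, which marks p27 for degradation, had 301, 325 and 271 in Rnf40+/+ and 94.8, 107 and 102 in Rnf40-/- (log2 fold change -1.55, adjusted p = 2.11e-06 from limma). Its cofactor Cks1b (-1.28) and Dtl, the adaptor that targets p21 (-2.22), were lower in Rnf40-/- too, as was Pcna, whereas Skp1a (0.49) and Rnf123 (0.35, a call lost without Rnf40-/- replicate 1 or 3) were higher. Cdkn1b was thus lower together with Skp2 and Cks1b.

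Of 36 upstream regulators of the inhibitor genes, 14 were higher (38.9%) and 10 lower (27.8%, median 0.15). Over all genes tested, 23.3% were higher and 24.1% lower. Polycomb proteins are known to silence Cdkn2a, and Ezh2, their H3K27 methyltransferase, had 506, 367 and 371 in Rnf40+/+ and 184, 189 and 174 in Rnf40-/- (log2 fold change -1.17, adjusted p = 2.35e-05 from limma), while Cbx7 was higher (1.05, adjusted p = 0.00198 from limma) and Bmi1 missed the threshold (-0.03, adjusted p = 0.768). The H3K27 demethylase gene Kdm6b (-0.91) was lower, as was E2f1 (813, 858 and 970 normalized counts against 401, 435 and 486), and Ets1, an activator of p16Ink4a (0.81), and Rb1, the pocket protein downstream of INK4 inhibitors (1.33), were higher. Trp53, which encodes p53, had 2068, 2054 and 2141 against 2019, 1937 and 1977 (-0.08, adjusted p = 0.318 from limma). Of 26 p53 target genes, 10 were higher (38.5%, against 23.3% of all genes tested) and 6 were lower (23.1%, against 24.1%), with a median of 0.036. Zmat3 (-0.68), Eda2r (-0.73) and Gadd45a (-0.62) were lower with Cdkn1a, whereas Gdf15 (1.21), Ei24 (1.00) and Xpc (0.84) were higher. Mdm2, the ubiquitin ligase of p53, was lower (-0.28, adjusted p = 0.00384 from limma), a call lost with library totals (-0.15, adjusted p = 0.0554).

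Senescence secretory genes numbered 13 higher (39.4%) and 12 lower (36.4%) among 33 tested (median 0.10), where 23.3% of all genes tested were higher and 24.1% lower. Ccl8 (1.75), Areg (1.68) and Mmp13 (1.47) were highest in this list, and Vegfa (-2.25), Cxcl12 (-1.70) and Igfbp5 (-1.52) lowest. Of 15 other senescence-linked genes, 4 were higher (26.7%, against the same 23.3%) and 7 were lower (46.7%, against 24.1%), with a median of -0.24. The number higher was 1 to 2 without any 1 of 5 libraries. Lmnb1, a lamin gene known to decline in senescent cells, had 502, 409 and 401 against 248, 283 and 259 (log2 fold change -0.72, adjusted p = 0.000266 from limma). Glb1, the gene of the enzyme behind senescence-associated beta-galactosidase staining, had 1937, 2109 and 2085 against 2058, 1910 and 2157 (adjusted p = 0.983 from limma). The lower Lmnb1 thus stood beside lower Cdkn1a and Cdkn2a.

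**Figure D5:**
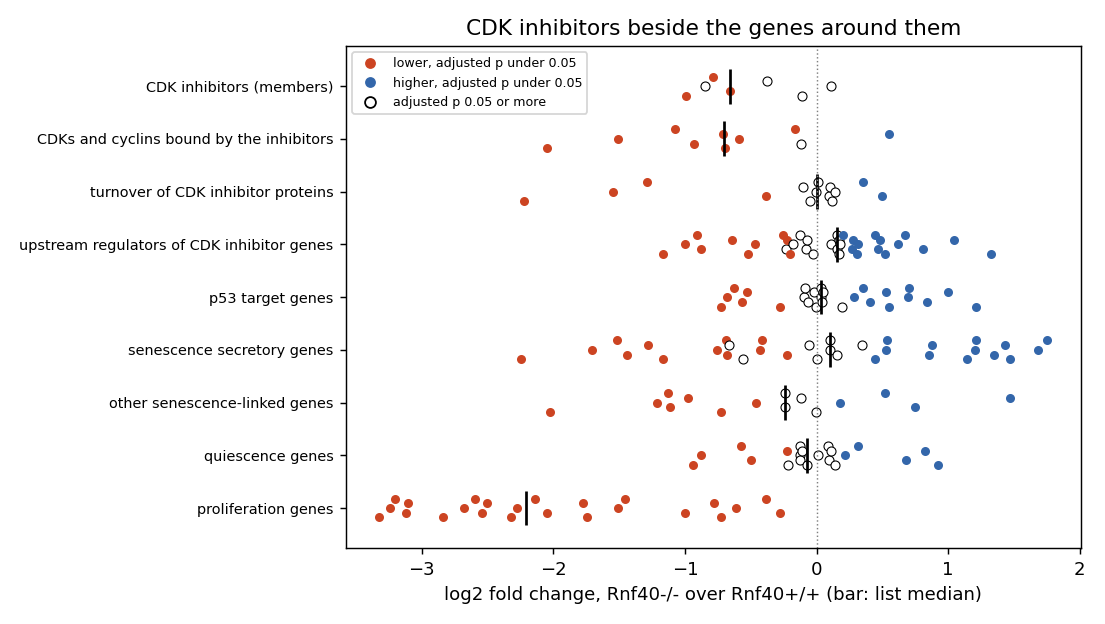
Log2 fold change of the 7 CDK inhibitor genes and of each tested gene in 8 related lists (red lower, blue higher, open circles not past adjusted p under 0.05, bar at the list median, vertical position within a list without meaning). The inhibitors have a median of -0.66, near that of the kinases and cyclins (-0.70), the proliferation genes lie wholly below 0 (median -2.21), and the p53 target genes spread to both sides (median 0.036).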

How the data were processed

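RNA-seq of 3 Rnf40+/+ and 3 Rnf40-/- MEF libraries was analysed. The authors made strand-marked libraries from total RNA, mapped reads to the mm9 transcriptome and divided them by 1 DESeq size factor per library. The submitters' processing notes name Bowtie2 (version 2.1.0) and DESeq (version 1.14.0). The deposited signal is thus a normalized count, and the read counts behind 100% of its values were recovered as whole numbers (tolerance 0.01).

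The filter on low genes was filterByExpr from edgeR (version 4.0.16) on recovered reads. The test was limma (version 3.58.1, eBayes with trend) on log2(normalized count + 1) with genotype alone in the model. The added 1 understates changes of low genes. Single values per library were compared by exact permutation with scipy (version 1.17.1). The tests were tried on simulated data. There limma recovered 25 of 55 changes of log2 size 0.6, 54 of 69 of size 1 and 75 of 76 of size 2. Small changes could thus be missed. Far fewer genes were changed in the simulation than were called in the data, so these rates need not hold here. Positions and exon lengths are from the mm9 annotation (GENCODE), and promoters from RefSeq on GRCm38.p6, whose coordinates differ from those of mm9. For Cdkn1c no promoter was printed.

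The members and lists were chosen with earlier results of these data known, the lists from general knowledge. Named are all members, all kinases and cyclins bound by the inhibitors, up to 3 genes with the largest rise and 3 with the largest fall of each other list among those called, and Trp53, Mdm2, Skp2, Bmi1, Ezh2, Kcnq1ot1, Phlda2, Mtap, Lmnb1, Glb1, Mki67 and Cdkn3. Not every gene under the rule is reported, and Elavl2, Pcna, Cd68 and C1qa stand outside it or were picked after values were seen. The design named this test for normalized values. Alternatives were the size factors and Wald test of DESeq2 (version 1.42.0), TMM and the quasi-likelihood test of edgeR, upper-quartile scaling, other filters and pseudocounts (0.1 and 10), each library left out in turn, a block for the replicate number, and library totals, which were added after seeing the data. On the recovered reads edgeR called 3857 genes higher and 3940 lower, against 3809 and 3955 with limma. R (version 4.3.3) and Python (version 3.11.15) were used.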

Additional observations from a re-analysis of the deposited data

How the results depend on the processing

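Cdkn1a, Cdkn1b and Cdkn2a kept their direction and their call under the 18 alternatives run. Their log2 fold changes ranged from -0.70 to -0.53, from -0.84 to -0.66 and from -1.08 to -0.87. Not all alternatives could move them: the DESeq2 size factors repeated the main values, and the filters and the replicate block could change only the p values. Cdkn1c was past the threshold with the quasi-likelihood test of edgeR (-1.09) and with a replicate block (-0.85, adjusted p = 0.00550 from limma). The replicate numbers did not pair the libraries (correlations of deviations of 0.012, 0.017 and 0.021), and the block changed no other member's call. With each library left out in turn, Cdkn1c ranged from -1.20 to -0.30 and Cdkn2c from -0.20 to 0.0021. Library totals moved Cdkn2b to 0.24, which made 1 member higher, and Cdkn2c to 0.013. The criteria of the study, applied to the limma values, left 0 members lower. The difference in the log2 ratio of the INK4 to the CIP/KIP sum was 0.039 without division by length and ranged from -0.041 to 0.042 with 1 library left out. Values near 0 changed sign for Ccne2 (0.010), Trp53 (0.048), Bmi1 (0.096) and Glb1 (0.12) with library totals, for Glb1 with TMM (0.0022), the Wald test of DESeq2 (0.0035) and edgeR (0.0028), and with 1 library left out for Bmi1 (-0.095 to 0.012) and Glb1 (-0.043 to 0.045). The cause was not tested. Among other genes and list counts, 32 values lost a call and 21 counts moved by more than 1.5 times. Of the members, Cdkn2c and Cdkn2d had the fewest reads (858 and 1017), and with 3 libraries a genotype the interval of Cdkn2d spans 0.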

Other observations

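Beyond the CIP/KIP and INK4 families, 11 genes with a Cdkn symbol or a role in CDK inhibition were tested (median log2 fold change -0.47). In Rnf40-/- MEFs 7 were lower (63.6%, against 24.1% of all genes tested) and 1 was higher (9.09%, against 23.3%). Cdkn3, whose protein is a phosphatase that acts on CDK2 and which is known to peak in dividing cells, had normalized counts of 76.4, 55.1 and 53.5 in Rnf40+/+ and of 4.08, 3.13 and 9.44 in Rnf40-/- (log2 fold change -3.36, adjusted p = 3.19e-05 from limma). The genotypes were far apart, although the Rnf40-/- values were close to the detection limit of 3 reads (2.83 to 3.13 normalized counts in these libraries). Pkmyt1 (-1.78, adjusted p = 9.54e-05 from limma) and Wee1 (-0.79, adjusted p = 0.000115 from limma), kinases that restrain CDK1 by phosphorylation, were lower in every Rnf40-/- library. Cdkn2aip, whose protein binds p19Arf, was the gene that was higher (0.45, adjusted p = 0.00417 from limma).

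Of 21 quiescence genes tested, 5 were higher and 5 were lower (23.8% each way, median -0.07), close to the 23.3% and 24.1% of all genes tested. Tob1, an antiproliferative gene, had 982, 1171 and 1032 in Rnf40+/+ and 1987, 1990 and 2051 in Rnf40-/- (log2 fold change 0.92, adjusted p = 1.79e-06 from limma). Cited2 (0.82) and Pdk4 (0.68) were higher as well. Lin9 (-0.94), Hes1 (-0.88) and Rbl1 (-0.57), the gene of a pocket protein, were lower. The number of higher genes was 3 without Rnf40+/+ replicate 1, Rnf40-/- replicate 1 or Rnf40-/- replicate 2.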
